A study of Mus musculus with 21 samples.

Results

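Retinoic acid, the active form of vitamin A, starts the differentiation of spermatogonia and their entry into meiosis. The RNA levels of 9 mouse genes that make it, break it down, bind it or respond to it were read from RNA-seq of germ cells of young B6 (C57BL/6J) males. The genes were taken by symbol from a table of 37620 genes, and all 9 matched 1 row each. They are Rdh10, Aldh1a1 and Aldh1a2, which make retinoic acid, Cyp26a1, Cyp26b1 and Cyp26c1, which degrade it, the receptors Rara and Rarg, and the target Stra8. The data comprised 4 samples of testis cells at 12 dpp (days post-partum), labelled 186wt, 343wt, 444wt and 456wt, with 3 libraries per sample. The cells were released by collagenase and trypsin and enriched for germ cells, and the labels call them spermatocytes. All 4 samples share strain, age and preparation and received no treatment that the labels name. The comparison that the labels allow is therefore between the 4 samples, and the Affinity-seq and ChIP-seq samples were not analysed here.

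In the testis, retinol is oxidised first to retinaldehyde, by enzymes such as RDH10, and then to retinoic acid, by the ALDH1A enzymes. The CYP26 enzymes oxidise retinoic acid to inactive products, so the ligand that a germ cell meets depends on both sets of enzymes in the cells around it. Retinoic acid binds the RAR receptors, which pair with RXR receptors on DNA. Stra8, a gene named for its response to retinoic acid, is switched on in germ cells before meiosis, and its product is needed for meiotic entry.

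RAR and RXR dimers bind paired copies of a 6-base half-site, classically a direct repeat with a short spacer. The promoters of Stra8 and Cyp26a1, both known to respond to retinoic acid, are shown because they held such half-sites, as did promoters of 3 other genes here. The 250 bases before each RefSeq start site (GRCm38.p6 table, placed on NCBI build 37 by exact match) were searched on both strands for AGGTCA and its variants. The variants were AGTTCA, which known elements often hold, the form GGGTCA, and the combination of both changes, GGTTCA. The table held 13 promoters of 8 of the 9 genes. Rdh10 had no entry. Of these 13, 5 held at least 1 half-site (38.5%), which is about the share of all promoters: 1 each of Stra8 and Cyp26a1 with 2 half-sites, 1 of the 4 of Rara with 4, and 1 each of Rarg and Aldh1a1 with 1. Of all 32851 promoters in the table, 38.6% had at least 1 such half-site and 9.75% at least 2, so a half-site alone is common. The Cyp26a1 promoter held 2 half-sites on the minus strand, read there as AGTTCA, which form a direct repeat spaced by 5 bases. Such a repeat was found in 29 of the 32851 promoters, or 0.0883%, and in none of the other 12 promoters of the 9 genes. Capitals mark the half-sites, which begin 32 and 21 bases before the start site on this strand.

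Cyp26a1, chr19:37772048-37772297, plus strand: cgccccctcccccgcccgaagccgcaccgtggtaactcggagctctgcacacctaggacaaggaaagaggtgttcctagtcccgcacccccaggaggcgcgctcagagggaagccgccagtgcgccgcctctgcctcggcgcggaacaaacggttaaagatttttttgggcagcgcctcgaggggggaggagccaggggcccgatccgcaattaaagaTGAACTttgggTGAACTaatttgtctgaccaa

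The Stra8 promoter held 2 AGGTCA half-sites on the plus strand, which begin 194 and 38 bases before the RefSeq start site and so do not form a short direct repeat. The window lies in an exon of a Stra8 transcript that starts further upstream in the build 37 annotation, so only the 30 bases around each half-site are given.

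Stra8 first half-site, chr6:34870742-34870771, plus strand: gatggggtgaaaAGGTCAtcttgctccttc
Stra8 second half-site, chr6:34870898-34870927, plus strand: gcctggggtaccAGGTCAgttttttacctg

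The Cyp26b1 promoter (chr6:84543805-84544054, minus strand) held no match to these letters. Matches describe the sequence, and binding was not measured here.

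All 9 genes gave fragments in all 12 libraries, over a range from 244 to 0.257 FPKM (sequenced fragments scaled to transcript length and library size, averaged over the 4 samples). FPKM is per transcript length, so levels can be compared between genes. Aldh1a1 was the highest at 244 ± 69.0 FPKM (SD, n = 4), above 99.0% of the 20795 genes tested (mean FPKM not under 0.1). Stra8 followed at 103 ± 29.3 FPKM and Cyp26b1 at 95.9 ± 31.2 FPKM. Rara had 39.2 ± 5.61, Aldh1a2 27.3 ± 1.94, Rarg 15.8 ± 3.82, Rdh10 7.92 ± 1.10 and Cyp26a1 4.52 ± 0.521 FPKM. Cyp26c1 was the lowest at 0.257 ± 0.0657 FPKM.

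The order of the genes was clear except at one step. Stra8 was above Cyp26b1 in 2 of 4 samples and below it in the others, so the order of these neighbours depended on the sample. Within each sample the libraries of the 2 genes did not overlap. At each of the other 7 steps the higher gene was above the lower one in 4 of 4 samples, and the ranges of the sample values did not overlap. The plot of the levels by library shows these steps.

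**Figure D1:**
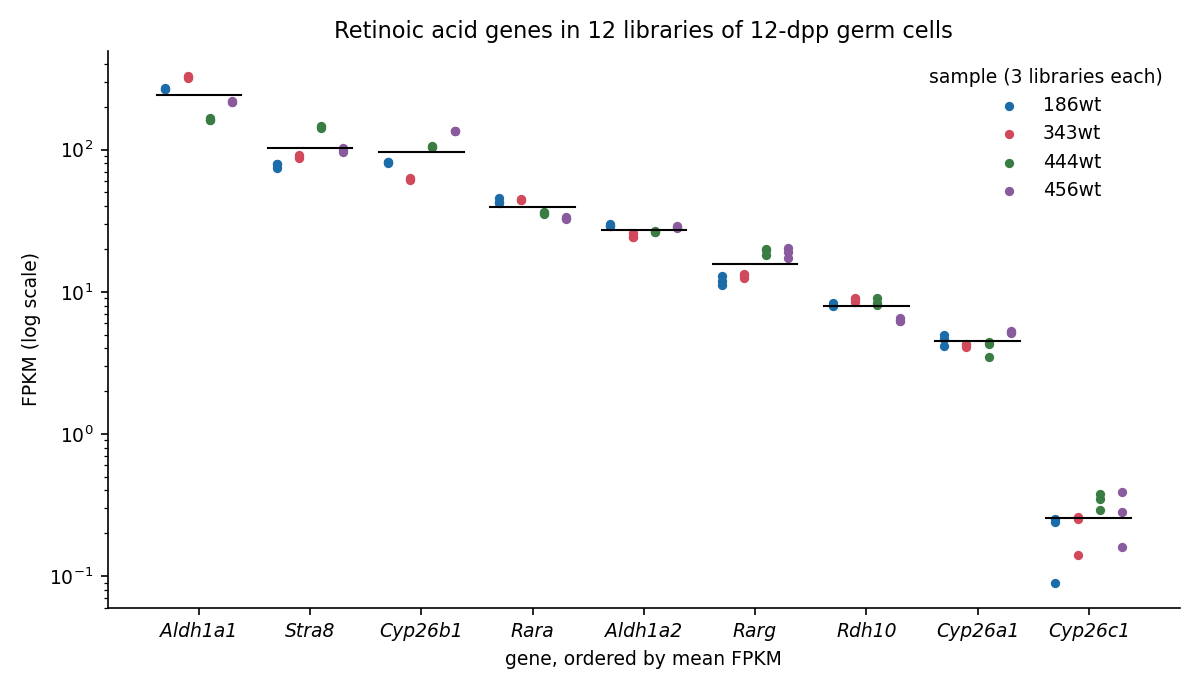
FPKM (log scale) of the 9 genes in the 12 libraries, with points coloured by sample and a black line at the mean of the 4 samples. Aldh1a1 lies at the top with 162 to 329 FPKM and Cyp26c1 at the bottom with 0.0900 to 0.390 FPKM, and the ranges of Stra8 and Cyp26b1 over all libraries overlap.

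The deposited values come without counts, and the depth estimated from the steps between low FPKM values was 13.1 to 18.2 M (mega) fragments per library. At that depth Aldh1a1 rested on about 4596 to 11593 fragments per library and Stra8 on about 1805 to 3948. Cyp26a1 rested on about 92.5 to 138 fragments and Cyp26c1 on about 1.98 to 9.95. Cyp26c1 varied more between libraries of 1 sample (coefficient of variation 32.5%) than between samples (25.6%). In the other 8 genes the samples varied more than their libraries.

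Levels between the 4 samples were compared with limma's F-test on log2(FPKM + 0.1), adjusted by Benjamini-Hochberg over all 20795 genes. Of the 9 genes, 8 differed between samples at an adjusted p-value under 0.05, and Cyp26c1 did not pass (adjusted p = 0.391). Differences of this kind were common: 58.2% of all genes tested passed, and the range between the highest and the lowest sample had a median of 0.63 on the log2 scale over the 9 genes and 0.55 over all genes. The share that passed depended on level. With a minimum mean of 1 FPKM, 11136 of 14348 genes passed, beside 8 of the 8 genes here that reached it. The paper describes 4 germ cell replicates for the RNA extraction, so the 3 libraries of a sample probably come from 1 RNA. Nothing in the labels says that these libraries were separate cultures or animals. Their coefficient of variation within samples ran from 0.988% (Cyp26b1, 4593 to 9018 estimated fragments per library) to 32.5% (Cyp26c1, 1.98 to 9.95). Whether counting error alone gives this spread was not tested. These p-values, and the SE given below, set samples against the spread of libraries, which is probably technical only. They are not evidence on the spread between separate preparations, which was not tested. Between pairs of samples, 37 of 54 differences of these genes passed (6 pairs, 9 genes), against 37.2% of all genes and pairs. That share covers genes down to a mean of 0.1 FPKM, while 8 of the 9 genes reached 1 FPKM. A share of pairs among genes of like level is not given here. Aldh1a1, Cyp26b1 and Stra8 passed in 6 of 6 pairs. Rara and Aldh1a2 passed in 5, Rarg in 4, Rdh10 in 3, Cyp26a1 in 2 and Cyp26c1 in none. When the libraries were centred on the median log2 ratio of all genes, 444wt moved by 0.10 against 343wt. Calls on differences of about that size depended on the scaling, and those of the 9 genes that changed are given below.

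**Figure D2:**
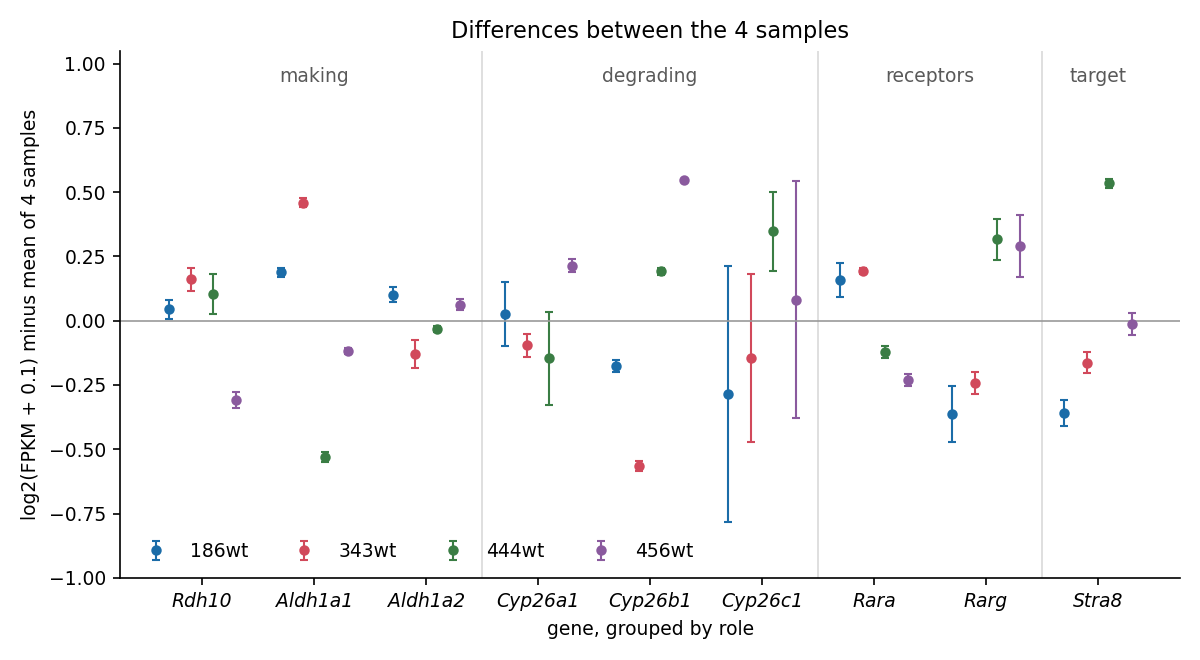
Mean log2(FPKM + 0.1) of each gene and sample minus the mean of the 4 samples, with bars for the SD of the 3 libraries and genes grouped by role. 444wt is the lowest sample for Aldh1a1 and the highest for Stra8, 343wt is the lowest for Cyp26b1, and the bars of Cyp26c1 overlap.

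Of the genes that make retinoic acid, Aldh1a1 changed most. It encodes a retinaldehyde dehydrogenase that the rodent testis is known to express in Sertoli cells, and it lies at chr19:20676451-20717952 (NCBI build 37, plus strand). Its mean over 3 libraries was 269 ± 3.35 FPKM (SD) in 186wt, 325 ± 4.22 in 343wt, 163 ± 2.29 in 444wt and 218 ± 1.87 in 456wt. The libraries of the 4 samples did not overlap, and 343wt was 1.99 times 444wt. The log2 difference of 444wt against 343wt was -0.99 ± 0.016 (SE), with an adjusted p = 4.53e-12 by limma. Aldh1a7, a close relative of Aldh1a1, had 5.02 FPKM in 444wt and 11.4 in 186wt, and reads of this pair could have been split between both genes by the quantification.

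Aldh1a2, the enzyme that makes retinoic acid in the embryo and is known from germ cells of the testis, lies at chr9:71063596-71144050. It was the steadiest of the 9 genes, with 29.2 FPKM in 186wt, 24.9 in 343wt, 26.6 in 444wt and 28.5 in 456wt. Its variation between samples was 7.12%, and its range of 0.23 on the log2 scale exceeded that of 14.9% of the genes tested. It still passed the F-test (adjusted p = 0.000236, limma). Its order of samples depended on the scaling: 444wt was above 343wt by 0.10 (log2) as deposited and differed by -0.0036 after median centring (adjusted p = 0.955). The difference of 456wt against 186wt was -0.040 as deposited (adjusted p = 0.368) and -0.10 after median centring (adjusted p = 0.0228). Aldh1a1 supplied 86.0% to 92.9% of the summed FPKM of this pair of genes.

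Rdh10, at chr1:16095855-16123815, encodes a retinol dehydrogenase of the first oxidation step. It had 8.11 FPKM in 186wt, 8.80 in 343wt, 8.46 in 444wt and 6.33 in 456wt. Only 456wt stood apart among its pairs: it was lower than each of the other samples, by 0.35 to 0.47 on the log2 scale, and the other 3 pairs did not pass. Without 456wt the F-test did not pass (adjusted p = 0.236). After median centring, 444wt was also lower than 343wt (-0.16, adjusted p = 0.0364).

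Of the degrading enzymes, Cyp26b1 held 93.4% to 96.1% of the summed Cyp26 FPKM in each sample. CYP26B1 is known as the enzyme that keeps retinoic acid from fetal germ cells of the testis, and after birth it is known from peritubular myoid cells. The gene lies at chr6:84521938-84543740 on the minus strand. It had 81.6 ± 1.33 FPKM (SD of 3 libraries) in 186wt, 62.3 ± 0.842 in 343wt, 105 ± 0.978 in 444wt and 135 ± 0.386 in 456wt. No libraries of different samples overlapped, and 456wt was 2.16 times 343wt. This difference of 1.11 ± 0.018 (log2, SE; adjusted p = 4.72e-12, limma) was the widest of the 54 pairs, and the range exceeded that of 82.3% of the genes tested.

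Cyp26a1 and Cyp26c1 are neighbours on chromosome 19, with 4409 bases between them (37772298 to 37776018 and 37760071 to 37767888, both on the plus strand). Cyp26a1, the member of the family that retinoic acid is best known to induce, had 4.59 FPKM in 186wt, 4.20 in 343wt, 4.07 in 444wt and 5.23 in 456wt. It passed the F-test by a small margin (adjusted p = 0.0240), and no longer did so without any 1 of the 3 libraries of 456wt (adjusted p of 0.0588 to 0.0760) or without that sample (0.364). Its 456wt level exceeded that of 444wt by 0.36 ± 0.094 (log2, SE; adjusted p = 0.0103). The excess of 456wt over 343wt was 0.31 as deposited (adjusted p = 0.0229) and 0.23 after median centring (adjusted p = 0.0851). The sample with the highest Stra8, 444wt, had the lowest mean of Cyp26a1 (343wt had it when the median of the libraries was taken or without 1 library of 444wt), though Cyp26a1 did not differ there from 186wt or 343wt (adjusted p = 0.180 and 0.722). Cyp26c1 had 0.193, 0.217, 0.340 and 0.277 FPKM in 186wt, 343wt, 444wt and 456wt. Its libraries overlapped between samples, and differences were not detectable at this depth.

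Set against each other, the enzymes gave ratios that differed between samples (this ratio and that of the receptors were formed after the values were seen, and no test was run). Aldh1a1 and Aldh1a2 together had 3.45 times the FPKM of the 3 Cyp26 genes in 186wt and 5.24 times in 343wt. The ratio was 1.73 in 444wt and 1.76 in 456wt. The makers thus exceeded the degraders in all 12 libraries, and the libraries of 186wt and 343wt lay above those of 444wt and 456wt. FPKM of RNA is not enzyme activity, and retinoic acid was not measured.

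**Figure D3:**
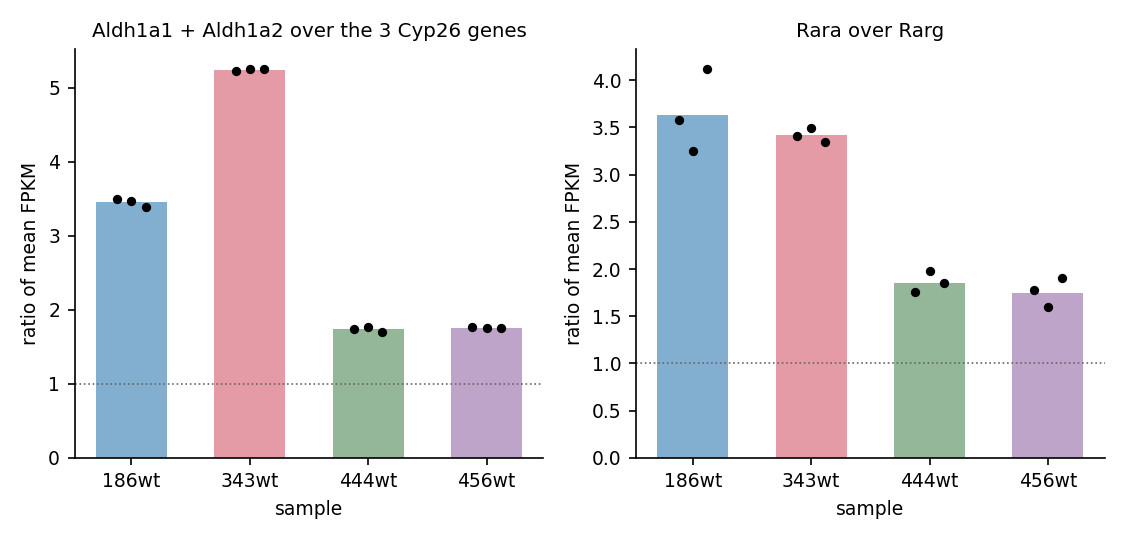
Ratio of summed FPKM of Aldh1a1 and Aldh1a2 to that of the 3 Cyp26 genes (left) and of Rara to Rarg (right), with a bar for the ratio of sample means and a point per library. Both ratios are above 1 (dotted line) in all 12 libraries and higher in 186wt and 343wt than in 444wt and 456wt.

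The receptors moved in opposite ways. Rara, known in the testis mainly for its role in Sertoli cells, lies at chr11:98789132-98836256. It had 43.4 FPKM in 186wt, 44.4 in 343wt, 35.7 in 444wt and 33.1 in 456wt. The libraries of 186wt and 343wt, from 42.0 to 45.7 FPKM, lay above those of 444wt and 456wt, from 32.7 to 36.3 FPKM. The difference of 456wt against 343wt was -0.42 ± 0.032 (log2, SE; adjusted p = 1.10e-06, limma), while 186wt and 343wt did not differ detectably (adjusted p = 0.456). Sample 456wt was below 444wt by a small margin, -0.11 as deposited (adjusted p = 0.0203) and -0.09 after median centring (adjusted p = 0.0471).

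Rarg, the receptor known from type A spermatogonia, lies at chr15:102065369-102087948 on the minus strand. It had 12.0 FPKM in 186wt, 13.0 in 343wt, 19.2 in 444wt and 18.9 in 456wt, so the same pairs of samples separated, the other way round. The libraries of the first pair lay from 11.1 to 13.4 FPKM and those of the second from 17.3 to 20.5 FPKM. The difference of 444wt against 186wt was 0.68 ± 0.071 (log2, SE; adjusted p = 1.44e-05, limma). Within each pair the samples did not differ detectably (adjusted p = 0.213 and 0.822). The ratio of Rara to Rarg was 3.63 in 186wt, 3.42 in 343wt, 1.86 in 444wt and 1.75 in 456wt. The sum of both receptors varied little, from 52.0 to 57.4 FPKM.

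Stra8, at chr6:34870163-34889342, had 77.8 ± 2.66 FPKM (SD of 3 libraries) in 186wt, 89.1 ± 2.54 in 343wt, 145 ± 1.78 in 444wt and 99.1 ± 2.92 in 456wt. The libraries of different samples did not overlap, and those of 444wt, from 143 to 147 FPKM, stood furthest from the rest. Sample 444wt was 1.86 times 186wt, a difference of 0.89 ± 0.030 (log2, SE; adjusted p = 1.60e-09, limma), and it exceeded 456wt by 1.46 times and 343wt by 1.62 times. The excess of 456wt over 343wt was 0.15 as deposited (adjusted p = 0.00203) and 0.07 after median centring (adjusted p = 0.115). The order of the samples for Stra8, Cyp26b1, Aldh1a1 and Rara was kept under all 15 alternatives of averaging, scaling and left-out libraries that were tried.

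The samples differed in the markers of germ cells and of other testis cells, so each gene is given beside the fixed marker lists. In bulk RNA, fewer cells of a type and less RNA per cell cannot be told apart. The label of spermatocytes covers a mixed preparation: of 73 markers found, the highest were the Sertoli genes Clu (1844 FPKM, mean of 4 samples) and Aard (580 FPKM). The 10 markers of leptotene to zygotene spermatocytes summed to 238 to 408 FPKM, and those of pachytene spermatocytes to 44.2 to 70.5 FPKM. Round spermatid markers summed to 2.81 to 4.56 FPKM, with Prm2 listed at 0 in all 12 libraries. The Sertoli list (13 of 14 found) summed to 2793 to 4969 FPKM, and the myoid list (7 genes) to 414 to 1691 FPKM. The sums were 16.1 to 110 FPKM for 6 Leydig, 16.9 to 38.4 FPKM for 6 endothelial and 7.04 to 29.0 FPKM for 6 macrophage genes. The 8 genes of undifferentiated spermatogonia summed to 100.2 to 140.4 FPKM and the 5 of differentiating spermatogonia to 163 to 238 FPKM.

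Stra8 was highest where the early meiotic genes were highest. All 10 markers of leptotene to zygotene spermatocytes had their highest mean in 444wt, as 36.3% of all genes tested did. An example is Sycp3, a part of the synaptonemal complex, with 99.0 FPKM there and 57.9 to 70.8 FPKM in the others. Dmc1, the meiotic recombinase, had 29.9 FPKM in 444wt and 14.6 to 21.3 FPKM in the others. The full order of the samples for Stra8 (186wt, 343wt, 456wt, 444wt) was shared by none of these 10 genes and by 10.9% of all genes tested. It was shared by 3 of 8 markers of undifferentiated and 2 of 5 of differentiating spermatogonia, among them Lin28a (28.5, 35.0, 46.2 and 49.6 FPKM in that order) and Sohlh1 (36.8, 42.5, 54.1 and 65.2 FPKM). Other undifferentiated markers went the other way: 2 of 8, Id4 (6.42 FPKM) and Etv5 (13.5 FPKM), were lowest in 444wt, as 21.3% of all genes tested were. The part of these cells in the Stra8 values was not tested.

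Cyp26b1 varied with the myoid list. Its order (343wt, 186wt, 444wt, 456wt) was that of 6 of 7 myoid markers, against 8.14% of all genes tested, and Des was the exception. Acta2, the smooth muscle actin that marks peritubular myoid cells, had 184, 394, 500.5 and 812 FPKM in that order, a 4.41-fold range beside the 2.16-fold range of Cyp26b1. The summed list ranged 4.09-fold. All 7 myoid markers were highest in 456wt, as 27.3% of all genes tested were. The 6 endothelial markers were also highest in 456wt but lowest in 444wt. The part of these cells in the Cyp26b1 values was not tested.

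Aldh1a1 and Rara varied with the Sertoli list. None of the 13 Sertoli markers was highest in 444wt or 456wt, and 12 of 13 were lowest in one of them, against 37.9% of all genes tested. The order for Aldh1a1 (444wt, 456wt, 186wt, 343wt), which 6.39% of all genes tested shared, was that of 3 Sertoli markers (Gata4, Clu and Inha) and 3 of 6 Leydig markers. The order for Rara (456wt, 444wt, 186wt, 343wt), with 3.83% of all genes tested, was that of 4 Sertoli markers (Amh, Dhh, Aard and Kitl). Clu had 1251 FPKM in 444wt and 2380 in 343wt, a 1.90-fold range beside the 1.99-fold range of Aldh1a1. The Leydig sum, 16.1 FPKM in 444wt and 110 in 343wt, ranged 6.88-fold. All 6 Leydig and all 6 macrophage markers were lowest in 444wt, against 21.3% of all genes tested. The part of these cells in the Aldh1a1 and Rara values was not tested, and these orders were compared after the values were seen.

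**Figure D4:**
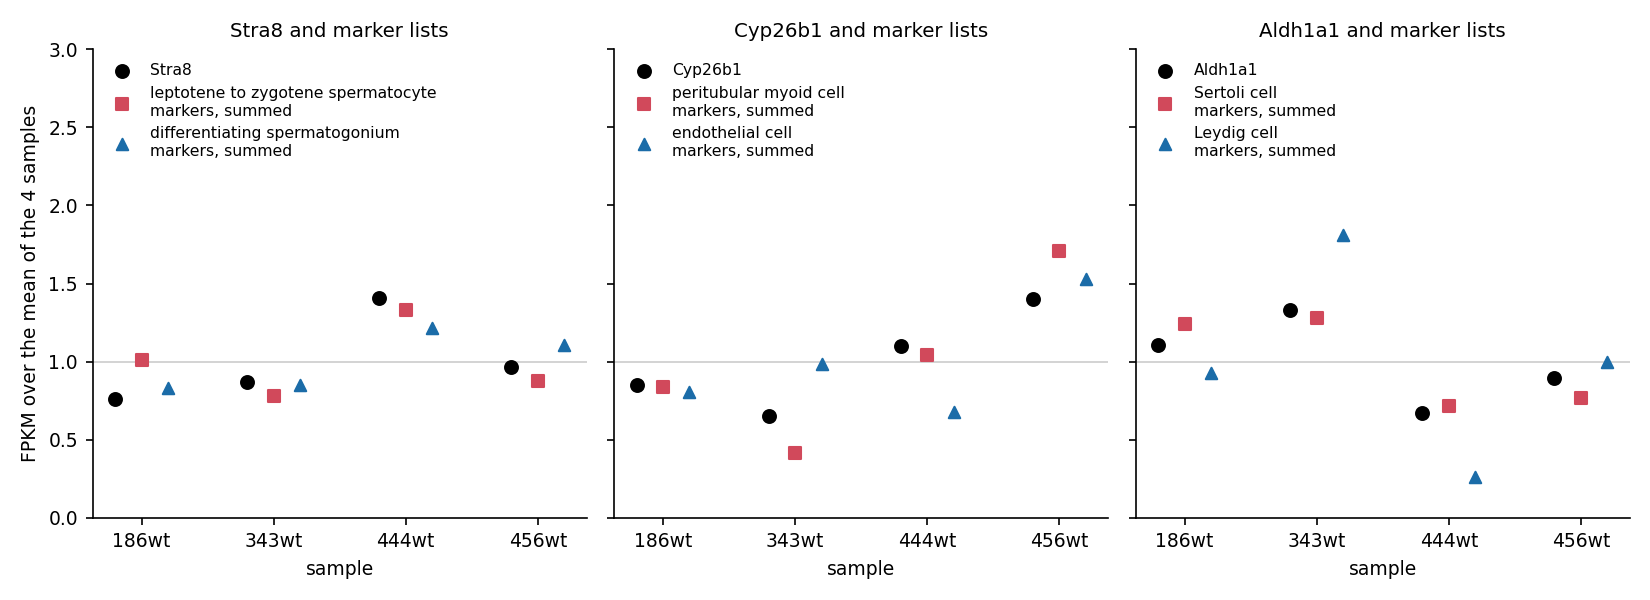
Level of Stra8, Cyp26b1 and Aldh1a1 (black circles) and of summed marker lists (squares and triangles) in each sample, as FPKM over the mean of the 4 samples. Stra8 and the leptotene to zygotene list are highest in 444wt, Cyp26b1 and the myoid list run from 343wt to 456wt in the same order, and Aldh1a1 and the Sertoli list are higher in 186wt and 343wt than in the others.

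The genes of most similar pattern were found from the root mean square difference of log2(FPKM + 0.1), each gene centred on its own mean over the 12 libraries, among 14347 other genes of 1 FPKM or more on average. Nearest to Stra8 were B4galnt4 (0.0926), Insig1 (0.0950), Gm44 (0.101), Pde4c (0.103) and Gm12763 (0.105). A gene with no variation would lie at 0.334. Insig1, which holds back cholesterol synthesis, had 32.0, 35.1, 39.7 and 51.1 FPKM in the order of samples of Stra8. Nearest to Cyp26b1 were Ednra (0.0526), Arhgef25 (0.0616), Ltbp4 (0.0683), Ier5 (0.0701) and Ace (0.0714), where a flat gene would lie at 0.414. Ednra, an endothelin receptor of contractile cells, had 8.14, 10.7, 13.9 and 17.9 FPKM from 343wt to 456wt, in the order of Cyp26b1. Nearest to Aldh1a1 were Serp1 (0.0551), Mbnl1 (0.0568) and Slc25a5 (0.0575), and nearest to Rara were Nab2 (0.0364), Eno1 (0.0428) and mt-Nd2 (0.0442). With 4 samples, many genes share a pattern, and likeness of this kind says nothing of function.

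Other genes of the pathway were read from 6 lists of 50 genes in all. Of the 45 that met the minimum level, 37 differed between samples (82.2%, against 58.2% of all genes), with a median range of 0.62 on the log2 scale. Crabp2, Adh1, Aldh1a7 and Gm4969 (Meiosin) had ranges over 1. After median centring 35 passed, since Rarb (adjusted p = 0.0553) and Med1 (0.0759) no longer did. With a minimum mean of 1 FPKM, 34 of 37 pathway genes passed, beside 11136 of 14348 genes in all, so the excess over all genes was smaller there. Of the 37 that passed as deposited at the usual minimum, 16 were highest in 444wt, 9 in 343wt, 8 in 186wt and 4 in 456wt. Of the 45 tested, passing or not, 18 were highest in 444wt, 10 in 343wt, 10 in 186wt and 7 in 456wt. Of all genes tested, 36.3% were highest in 444wt, 17.6% in 343wt, 18.8% in 186wt and 27.3% in 456wt. The share of the 45 in 444wt was thus near that of all genes, and that in 456wt was lower. The full order of samples of Stra8 was shared by 8 of the 45, against 10.9% of all genes tested. That of Cyp26b1 was shared by 2 (8.14% of all genes), that of Aldh1a1 by 3 (6.39%) and that of Rara by 3 (3.83%).

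Of the genes for uptake, storage and binding of retinol and retinoic acid, 5 of 8 tested passed, against 58.2% of all genes tested. Crabp1, which binds retinoic acid in the cytoplasm, was the most abundant with 79.4 FPKM in 186wt, 82.6 in 343wt, 130 in 444wt and 118 in 456wt, the same separation of samples as for Rarg. Crabp2 had 0.740 FPKM in 343wt and 1.73 in 444wt. Rbp4, the carrier of retinol in blood, had 16.7 FPKM in 343wt and 32.4 in 456wt and shared the order of Cyp26b1. Stra6, the receptor that takes up retinol, had 27.2 FPKM in 186wt and 17.8 in 456wt. Lrat, which esterifies retinol for storage, had 0.280 to 0.413 FPKM and did not pass (adjusted p = 0.303), nor did the carotenoid oxygenases Bcmo1 and Bco2. Rbp2 was below the minimum level.

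Of 10 other dehydrogenases and reductases tested, 6 passed, against 58.2% of all genes tested. Adh5 was the highest with 68.6 to 80.9 FPKM. Adh1, an alcohol dehydrogenase that oxidises retinol, had 2.09 FPKM in 444wt and 7.15 in 343wt, the widest range of all 45 genes (1.74 on the log2 scale). These are also the samples with the lowest and highest sums of the Leydig, Sertoli and macrophage lists. Dhrs3, a reductase that returns retinaldehyde to retinol, was higher in 456wt (9.71 FPKM) than in the others (5.66 to 6.39 FPKM). Adh4, Dhrs4 and Rdh11 also passed. Rdh5, Rdh12, Rdh13 and Rdh14 did not, and Dhrs9, Adh7 and Sdr16c5 were below the minimum level, with Sdr16c5 listed at 0 in all libraries. Of the other aldehyde dehydrogenases listed beside Aldh1a1 and Aldh1a2, Aldh1a3 and Aldh1a7 passed and both were lowest in 444wt, as Aldh1a1 was. Whether Aldh1a7 makes retinoic acid was not tested. Its values may not be independent of Aldh1a1, since reads could have been split between them. Aldh1a3 had 1.86 FPKM there and 2.88 to 3.55 FPKM in the others, and Aldh8a1 was below the minimum level.

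Of the other receptors, 3 of 4 passed, against 58.2% of all genes tested. Rarb, a receptor gene that retinoic acid induces in many cells, was low with 0.340 to 0.643 FPKM, far below Rara and Rarg, and had the same order of samples as Stra8. Rxrb was the main partner gene with 48.0 to 52.3 FPKM and a range of 0.12 on the log2 scale (0.19 after median centring). Rxra had 17.3 FPKM in 186wt and 27.8 in 456wt. Rxrg had 0.163 to 0.193 FPKM and did not pass. All 9 cofactors passed as deposited (all but Med1 after median centring), with ranges of 0.16 to 0.63 on the log2 scale. Their means were above 1 FPKM, and with that minimum 11136 of 14348 genes in all passed. The coactivator Ncoa2 had 45.0 FPKM in 444wt and 69.8 in 343wt, in the order of Aldh1a1.

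All 12 genes of the list of retinoic acid response and meiotic entry passed, against 58.2% of all genes tested. Most of the 12 had means above 1 FPKM, and with that minimum 11136 of 14348 genes in all passed. Of the 12, 9 were highest in 444wt as Stra8 was (8 of 12 after median centring, against 36.3% of all genes tested as deposited). Kit, Sohlh1, Sohlh2, Ccnd2, Nanos2 and Sycp3 stand in a marker list too. Gm4969, the table's name for Meiosin, whose product acts with STRA8, had 45.4 FPKM in 186wt, 26.5 in 343wt, 54.8 in 444wt and 29.0 in 456wt. It shared the highest sample with Stra8 but not the order, since 186wt was its second sample and the lowest for Stra8. Rec8, a meiotic cohesin, was highest in 186wt (27.0 FPKM) and had 17.6 to 19.2 FPKM in the others. Dazl, an RNA-binding protein that germ cells need to respond to retinoic acid, had 254 FPKM in 444wt and 163 to 200 FPKM in the others. Kit, the receptor of differentiating spermatogonia, had 56.0 FPKM in 444wt and 34.5 in 343wt. Sall4, Sohlh1 and Sohlh2 shared the full order of Stra8. Tgm2, which retinoic acid induces in many cells, was highest in 456wt (49.1 FPKM) and shared the order of Cyp26b1. Nanos2, which opposes meiosis in male germ cells, had 0.570 to 1.00 FPKM.

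**Figure D5:**
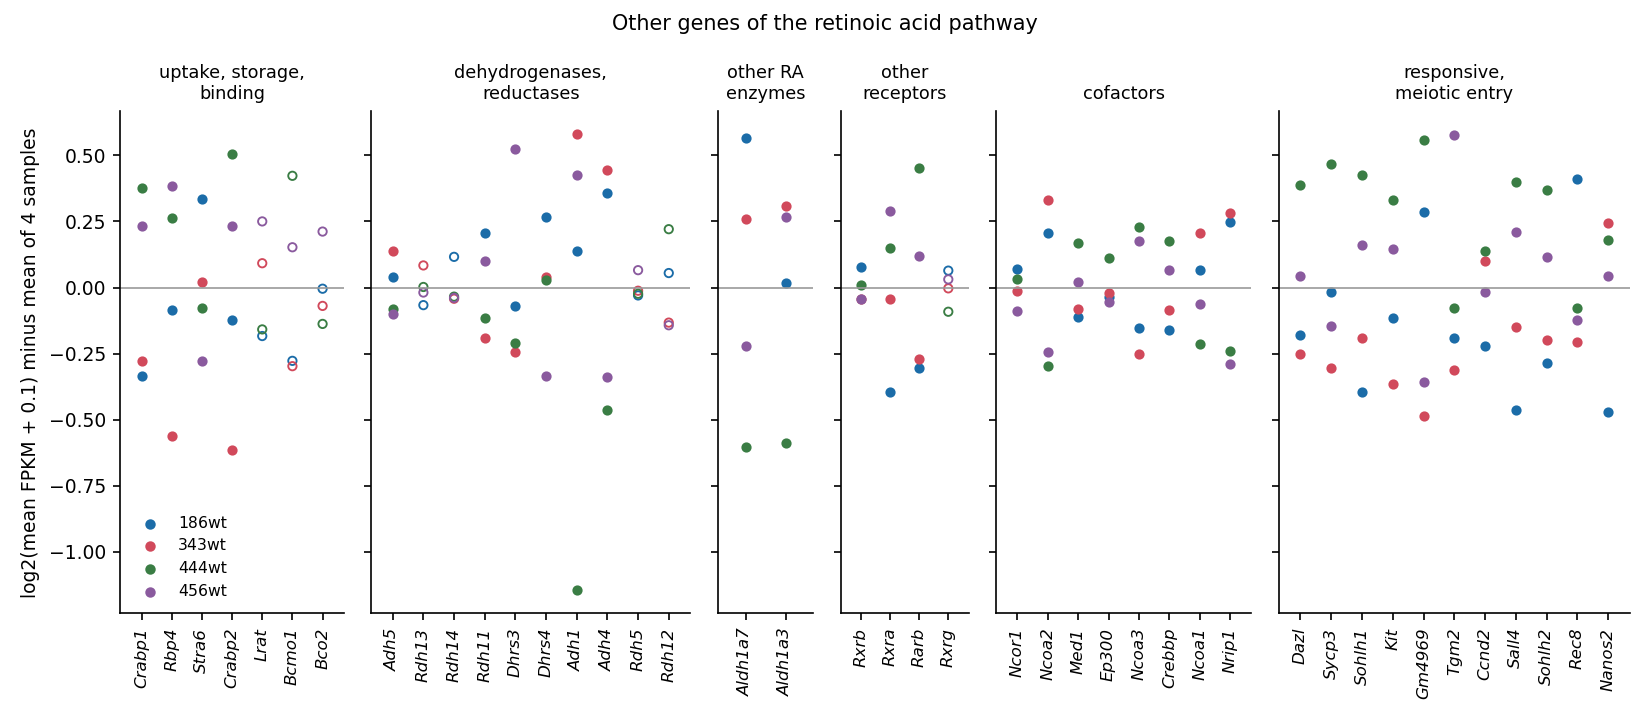
Log2(mean FPKM + 0.1) of other pathway genes tested, minus the mean of the 4 samples, in 6 lists ordered by level, with filled points for genes that passed the F-test. In the list of response and meiotic entry 444wt is the highest sample for most genes shown, and Adh1 in 444wt lies furthest from 0.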

How the data were processed

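RNA was extracted by the study from 4 B6 germ cell samples at 12 dpp. The deposited FPKM were computed by the authors with RSEM 1.2.8, from alignments that BowTie 0.12.9 made against the transcripts of NCBI build 37. A strand setting is not given in the sources used here. RSEM divides reads that fit several transcripts, so close relatives such as Aldh1a1 and Aldh1a7 are less certain. By GENCODE M1 (build 37), a U6 RNA gene inside Rara on the same strand is the only gene that overlaps 1 of the 9 genes.

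The 3 libraries of each sample were averaged, and each mean ± SD is over 4 samples unless stated. Between-sample tests used R 4.3.3 and its package limma 3.58.1 (lmFit, eBayes with trend) on log2(FPKM + 0.1), a scale that understates changes of low genes. Genes needed a mean of at least 0.1 FPKM, and p-values were adjusted over all 20795 such genes, or over genes and 6 pairs. On simulated data of 20795 genes with 200 shifted by 1 (log2) in 444wt, 59.0% were recovered and 1.67% of calls were false.

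The genes and lists were chosen with earlier results of these data known. The genes named are the 9, the pathway lists, the nearest patterns (5 for Stra8 and Cyp26b1, 3 for Aldh1a1 and Rara) and, of the marker lists, the highest genes and those whose list moved with one of the 9. Some genes that these lists cover are not reported here. The marker list lacks Rhox5, which was not matched. Depth was estimated from the FPKM steps of 350 genes that have 1 transcript, 300 to 500 bp long, a method chosen after the data were seen. Its largest error was 0.567% on FPKM simulated from the length model that the method assumes. An error of that model would not show in this simulation. The model takes a fixed length off each transcript, fitted at 64.5 bp. The mean fragment length that the paper gives for RSEM is longer, and this difference was not resolved. The fragment numbers bear on counting error only. Alternatives were other pseudocounts, filters and scalings, a fit without trend, a replicate block, and omission of each library or sample. Python 3.11.15 with numpy 2.4.6, pandas 2.3.3 and matplotlib 3.10.9 was used for the rest.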

Additional observations from a re-analysis of the deposited data

Results flagged for a closer look

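Of 67 sets of 4 sample means (the 9 genes, the 45 other pathway genes tested, the 10 marker sums and 3 ratios), 1 had a sample set apart by Dixon's gap-to-range ratio at its 95% critical value, where chance gives about 1 in 20 sets. Rdh14, a retinal reductase, had 9.99 FPKM in 186wt and 8.94 to 8.99 FPKM in the other samples, and its F-test did not pass (adjusted p = 0.247, limma).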

How the results depend on the processing

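Of the 9 genes, 8 passed the F-test under each of the 8 alternatives of pseudocount, filter, scaling, trend and block, and 6 to 8 when a library or a sample was left out. The calls lost were those of Cyp26a1 and Rdh10 given above with 456wt. The number of passing pairs was 35 to 37 under the first 8 alternatives and 16 to 21 when a whole sample was left out, which leaves 27 pairs in place of 54. Pathway genes that passed numbered 31 to 37, and genes tested in all that passed, from 9848 to 12146. Of 171 recomputed mean levels, all moved by less than 1 SD between samples. Leaving out 1 of 4 samples cannot move a mean that far, and leaving out 1 library hardly can. That count is therefore no test of how steady the levels are. With the library number as a replicate block, 8 of the 9 genes, 35 of their 54 pairs, 34 pathway genes and 11774 genes in all passed. The numbers did not pair the samples: deviations of libraries with the same number correlated at -0.0648 to 0.128 over genes (median -0.0073). Depth limits Cyp26c1, with 1.98 to 9.95 estimated fragments per library, and 4 samples of 1 age and strain cannot show a change with age or treatment.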
